A study of Mus musculus with 8 samples.

Results

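A set of 257 distal ASH2L binding sites carried the consensus sequence of AP-1, out of the 6444 sites in the list of ASH2L sites found across all samples. Of these, 6428 lay on the 21 assembled nuclear chromosomes of mm10. A site was taken as distal when its centre was more than 3 kb from every annotated transcription start site (TSS) of any gene type, which held for 2389 sites. From these, 172 sites with a computed CpG island were set aside, leaving 2217. The 257 sites were those whose central 200 bp held TGAGTCA or TGACTCA, and the other 1960 distal sites, of which 56 had a match in the site but outside its central 200 bp, served for comparison. Each of these 7-base sequences is the reverse complement of the other, so 1 match counts for both strands.

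The sites came from ChIP-seq of immortalized mouse embryo fibroblasts (iMEF cells). In these cells exon 4 of both floxed Ash2l alleles had been deleted through Cre-ER, and a lentivirally introduced human ASH2L fused to an FKBP tag with HA epitopes (FKBP-HA2-ASH2L) replaced the endogenous protein, so every group carried both the deletion and the transgene. The compound dTAG-13, which targets the fusion protein for degradation, was given for 1 h or left out, and for either condition there were 2 ASH2L ChIP and 2 input libraries, 8 in all, from cells that the study grew as selected clones. The site list is a union over samples and holds positions alone. It has no value per library, so no comparison with dTAG-13 can be drawn from it. Neither the depth of the libraries nor which of them gave a site is shown in it.

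ASH2L is a core subunit of the KMT2 (COMPASS) complexes, which methylate lysine 4 of histone H3 at promoters and enhancers. AP-1 is a dimer of FOS and JUN family proteins that binds the palindromic TPA-response element, and in fibroblasts it responds to serum and growth factors and occupies many distal enhancers. A match to the 7 bases is a description of the sequence and does not show that AP-1 was bound there.

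The 8 sequences that follow are the central 200 bp of the members with the most matches and of the widest members, shown because they hold the densest and the broadest examples. They are given 5′ to 3′ on the + strand of mm10 (GRCm38.p6), named by the nearest protein-coding gene, with the AP-1 match in capitals.
Cdc5l site, chr17:45359591-45359790: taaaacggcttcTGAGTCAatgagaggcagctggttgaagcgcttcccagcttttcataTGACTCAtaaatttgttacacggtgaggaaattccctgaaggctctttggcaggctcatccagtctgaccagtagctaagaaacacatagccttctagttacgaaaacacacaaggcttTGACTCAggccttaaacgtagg
Srgap1 site, chr10:121904236-121904435: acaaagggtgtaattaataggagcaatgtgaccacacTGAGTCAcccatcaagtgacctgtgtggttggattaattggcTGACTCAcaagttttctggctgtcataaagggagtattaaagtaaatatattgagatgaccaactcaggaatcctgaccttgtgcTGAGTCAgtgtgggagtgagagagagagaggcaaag
Foxb2 site, chr19:16898667-16898866: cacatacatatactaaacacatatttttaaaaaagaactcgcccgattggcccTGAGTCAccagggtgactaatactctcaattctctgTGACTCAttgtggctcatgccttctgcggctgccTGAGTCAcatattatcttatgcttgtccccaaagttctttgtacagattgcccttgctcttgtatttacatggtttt
Gip site, chr11:96018147-96018346: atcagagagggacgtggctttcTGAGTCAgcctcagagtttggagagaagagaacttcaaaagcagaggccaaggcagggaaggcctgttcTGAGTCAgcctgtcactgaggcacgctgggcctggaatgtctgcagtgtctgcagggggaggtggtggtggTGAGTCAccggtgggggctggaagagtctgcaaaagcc
Ifne site, chr4:88934440-88934639: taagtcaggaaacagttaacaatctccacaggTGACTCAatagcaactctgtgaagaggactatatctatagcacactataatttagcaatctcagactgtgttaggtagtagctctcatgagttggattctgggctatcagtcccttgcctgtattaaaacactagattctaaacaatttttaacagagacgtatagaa
Ier3 site, chr17:35813227-35813426: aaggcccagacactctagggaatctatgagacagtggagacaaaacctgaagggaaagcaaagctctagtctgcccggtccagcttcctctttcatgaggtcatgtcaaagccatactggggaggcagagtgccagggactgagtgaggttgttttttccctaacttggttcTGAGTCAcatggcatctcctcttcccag
Vgll3 site, chr16:65818792-65818991: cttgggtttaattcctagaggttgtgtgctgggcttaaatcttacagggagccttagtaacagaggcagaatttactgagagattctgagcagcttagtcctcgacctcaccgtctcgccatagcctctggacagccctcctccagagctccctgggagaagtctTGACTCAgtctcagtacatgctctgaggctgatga
Glipr1l3 site, chr10:112123790-112123989: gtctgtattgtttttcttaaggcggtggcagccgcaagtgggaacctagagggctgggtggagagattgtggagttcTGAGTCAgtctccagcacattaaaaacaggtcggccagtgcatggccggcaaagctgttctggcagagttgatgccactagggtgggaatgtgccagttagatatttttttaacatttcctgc
Shorter stretches around the match are shown for the sites nearest to genes of the AP-1 target list, chosen after their values were seen.
Mmp13 site, chr9:7258697-7258737: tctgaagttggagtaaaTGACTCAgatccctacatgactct
Trib1 site, chr15:59575514-59575554: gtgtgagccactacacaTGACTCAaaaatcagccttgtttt

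The first 4 of these sites held 3 matches each in their central 200 bp. The site nearest to Cdc5l, a spliceosome component, was 285 bp wide and its matches were centred -85, -38 and 81 bp from the site centre. Near Srgap1, a GTPase-activating protein of Slit-Robo signalling, the site was intronic, 241 bp wide, with matches at -60, -18 and 67 bp. The site nearest to Foxb2, a forkhead transcription factor gene, was 240 bp wide with matches at -44, -8 and 26 bp. The site nearest to Gip, which encodes an incretin hormone, was 222 bp wide with matches at -75, -6 and 65 bp. The nearest coding TSS was 55993, 81203, 24962 and 6298 bp away from the centres of these 4 sites, so the names give position only.

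Most members held a single match. There were 293 matches in all, with 1 match in 225 members (87.5%), 2 in 28 (10.9%) and 3 in 4 (1.56%). Where there was more than 1, the closest matches of a site were 8 to 173 bp apart, with a median of 50 bp, and in 6 of these 32 members they were within 20 bp. Sites with more matches were not visibly wider, with median widths of 237, 238 and 240 bp for 1, 2 and 3 matches.

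The motif was more frequent in distal sites than in promoter sites and in the genome. It was present in the central 200 bp of 395 of all 6428 sites (6.14%), in 72 of 3377 sites within 1 kb of a TSS (2.13%, Wilson 95% interval 1.70 to 2.68) and in 45 of 662 sites at 1 to 3 kb (6.80%, 5.12 to 8.97). Of the distal sites outside islands 11.6% had it (10.3 to 13.0), and of the 172 distal sites with an island 21 did (12.2%, 8.13 to 17.9), so the exclusion of islands left the share nearly as it was. Among consecutive 200-bp windows of the genome that were centred more than 3 kb from a TSS and outside islands, 3.11% held it. These intervals cover counting error over sites of 1 list only.

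Around the 2217 distal sites the matches were densest at the site centre. Within 100 bp there were 0.677 matches per kb of sequence, from 100 to 300 bp 0.399 per kb, and from 500 to 2000 bp 0.196 per kb, with single 100-bp bins there between 0.126 and 0.257 per kb. The rule of membership uses the central 200 bp, so this profile over all distal sites is a description.

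**Figure D1:**
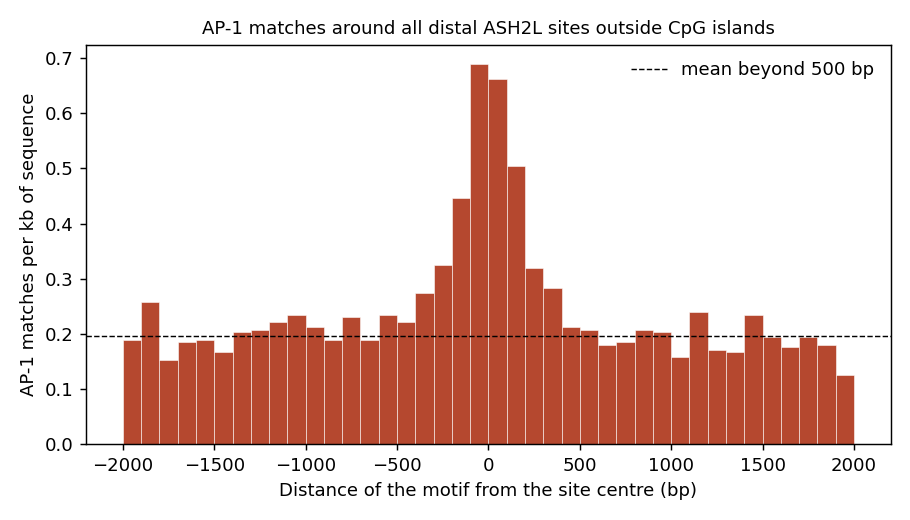
AP-1 matches per kb of sequence (y axis) in 100-bp bins by distance from the centre of the site (x axis, bp), over the 2217 distal sites outside CpG islands, with the mean at 500 to 2000 bp as a dashed line. The 2 bins beside the centre stand at 0.663 and 0.690 per kb, and no bin beyond 500 bp exceeds 0.257.

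Within the central 200 bp the rule does not fix where the match lies. In the 225 members with a single match its centre was at a median of -2 bp from the site centre (quartiles -44 and 41 bp), with 115 at lower and 110 at higher coordinates. It lay within 25 bp of the centre in 73 of them (32.4%, 26.7 to 38.8), against 26.3% of the 194 possible positions. The excess gave p = 0.0407 in a two-sided exact binomial test and an adjusted p of 0.199 over the 11 properties tested, so it did not pass the threshold of 0.05. By width, the central share was 30 of 76 members at the narrowest width of 200 bp (39.5%, 29.2 to 50.7), 28 of 84 up to 300 bp (33.3%, 24.2 to 43.9) and 15 of 65 above it (23.1%, 14.5 to 34.6). The difference between these width classes was not tested.

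**Figure D2:**
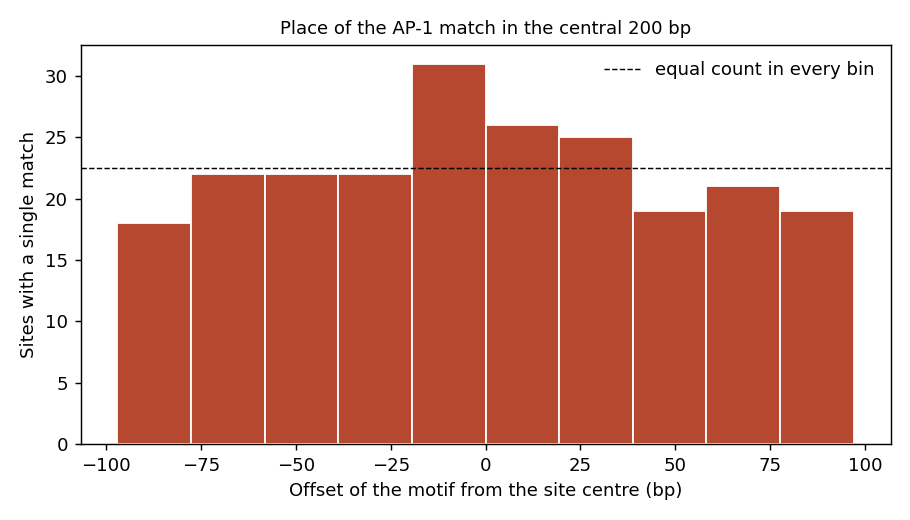
Number of single-match members (y axis) by offset of the match from the site centre (x axis, bp), in 10 equal bins, with the count expected of an even spread as a dashed line. The fullest bin lies just below the centre, and matches occur across the whole window.

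The bases next to the match differed from those of other matches in the genome. Read with TGAGTCA on the forward strand, T stood before the match in 35 of 293 member matches (11.9%), against 23.4% of distal matches in the genome. A stood after it in 33 (11.3%), against 19.7%. G before the match (29.7% against 20.1%) and C after it (31.4% against 23.7%) were more frequent in the members. T before the match on 1 strand is A after it on the other, and 63 of 293 member matches had at least 1 of them (21.5%, 17.2 to 26.6), against 136872 of 359590 other distal matches of the genome (38.1%). The odds ratio was 0.446 (0.332 to 0.591) with p = 1.73e-09 in a two-sided Fisher's exact test, which was added after these bases had been seen. Against 1236 matches that lay 500 to 1900 bp from the centres of all 2217 distal sites outside islands, members and others, the odds ratio was 0.480 (0.349 to 0.654, exact p = 8.97e-07). Of these 1236 matches 36.3% had such a base.

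No such difference was detectable between the member matches and those in the remaining sites of the list. Of 145 matches in promoter, near-promoter and island sites 33 had T before or A after (22.8%), with an odds ratio of 0.930 (0.563 to 1.55, exact p = 0.806). Among members in the interquartile range of GC content the share was 26.5%, against the same 38.1% of genome matches of any GC content (exact p = 0.00197). The part of GC content in the difference was not tested further. The 9-base form with A before and T after, a tested property of its own, occurred in 24 of 293 member matches (8.19%) and 6.13% of genome matches, with an odds ratio of 1.37 (0.859 to 2.08, exact p = 0.143, adjusted p = 0.263). In the remaining sites of the list this form occurred in 4 of 145 matches (2.76%), with an odds ratio of 3.14 for the members (1.05 to 12.7, exact p = 0.0362, adjusted p = 0.149).

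No difference in width between the members and the other distal sites passed the threshold. The members had a median width of 238 bp (quartiles 200 and 309 bp, highest 736 bp) and the other sites 224 bp (200 and 326 bp, highest 1394 bp). The width exceeded the common median of 226 bp in 141 of 257 members (54.9%) and in 955 of 1960 other sites (48.7%), an odds ratio of 1.28 (0.977 to 1.68, exact p = 0.0731, adjusted p = 0.201). At the narrowest width of the list, 200 bp, stood 84 members (32.7%) and 685 others (34.9%), an odds ratio of 0.904 (0.677 to 1.20, exact p = 0.487, adjusted p = 0.669). More members than others fell at 250 to 300 bp (16.7% against 11.4%) and at 400 to 500 bp (4.67% against 2.30%), and fewer at 300 to 400 bp (19.8% against 24.2%). With the 56 sites that had a match outside the central 200 bp counted as members, which are wider than 200 bp by construction, the shares above the median width were 62.3% of 313 and 47.3% (exact p = 9.6e-07, adjusted p = 5.28e-06). The direction of the width difference also depended on the width at which the sites were divided.

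**Figure D3:**
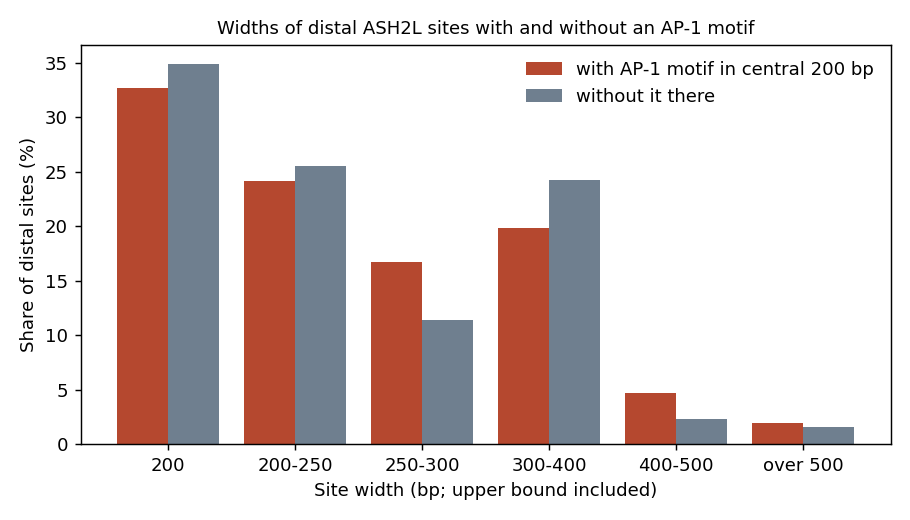
Share of sites (y axis, %) in 6 width classes (x axis, bp) for the 257 distal sites with an AP-1 motif in the central 200 bp and the 1960 without it there. Both groups have their largest class at 200 bp, with 32.7% and 34.9%.

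The 8 widest members spanned 457 to 736 bp. The widest, 736 bp, lay 54339 bp upstream of the TSS of Ifne, an interferon gene of the chromosome 4 interferon cluster, and a further member of 276 bp stood at 48550 bp. A TSS of another gene type was 3981 bp from the 736-bp site. The next, 595 bp, lay 8357 bp upstream of Ier3, an immediate-early gene. A site of 551 bp lay in an intron of Vgll3, a cofactor of TEAD factors, 3263 bp downstream of its TSS, and this gene also had a promoter site. The others were nearest to Glipr1l3 (544 bp), Skap1 (527 bp), Cdh23, a cadherin gene (499 bp), Gprin3 (470 bp) and Gm17555 (457 bp). Each of the 8 held 1 match.

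Of the 11 properties adjusted together, 1 separated members from the other distal sites past the threshold, their content of repeats. Repeats were read from lower-case letters in the reference sequence, called soft-masked, and the kinds of repeat behind them were not examined. More than 50% of the central 200 bp was soft-masked in 10 of 257 members (3.89%, 2.13 to 7.01) and in 307 of 1960 others (15.7%, 14.1 to 17.3), an odds ratio of 0.218 (0.102 to 0.414, p = 1.35e-08, adjusted p = 1.48e-07, two-sided Fisher's exact test). The median soft-masked share was 10.5% in members and 14.5% in the others. Seen from the sites, 10 of 317 repeat-rich distal sites held the motif (3.15%, 1.72 to 5.71) and 247 of 1900 of the rest (13.0%, 11.6 to 14.6). In distal genome windows the motif was also less frequent in repeats, at 1.88% against 3.67%. Of the members named here, the one nearest to Trib1 was repeat-rich, with 87.5% of its window soft-masked.

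The others of these 11 properties did not pass the threshold. The GC content of the central 200 bp had a median of 46.0% in members and 45.5% in the others, and 54.1% against 47.7% lay above the common median (odds ratio 1.29, 0.989 to 1.70, exact p = 0.0544, adjusted p = 0.199). Site centres were intronic in 133 members (51.8%) and 48.5% of the others (odds ratio 1.14, 0.870 to 1.49, exact adjusted p = 0.555), and 122 members (47.5%) were intergenic. The median distance to the nearest TSS was 15061 bp in members and 17390 bp in the others, with 18.7% of either more than 50 kb away (odds ratio 0.997, 0.698 to 1.40, exact adjusted p = 1.00). A further distal site lay within 50 kb of 43 members (16.7%) and of 18.2% of the others (odds ratio 0.905, 0.624 to 1.29, exact adjusted p = 0.685). Chromosomes 10 and 15, where distal sites are dense in this list, held 56 members (21.8%) and 20.4% of the others (odds ratio 1.09, 0.777 to 1.5, exact adjusted p = 0.685).

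**Figure D4:**
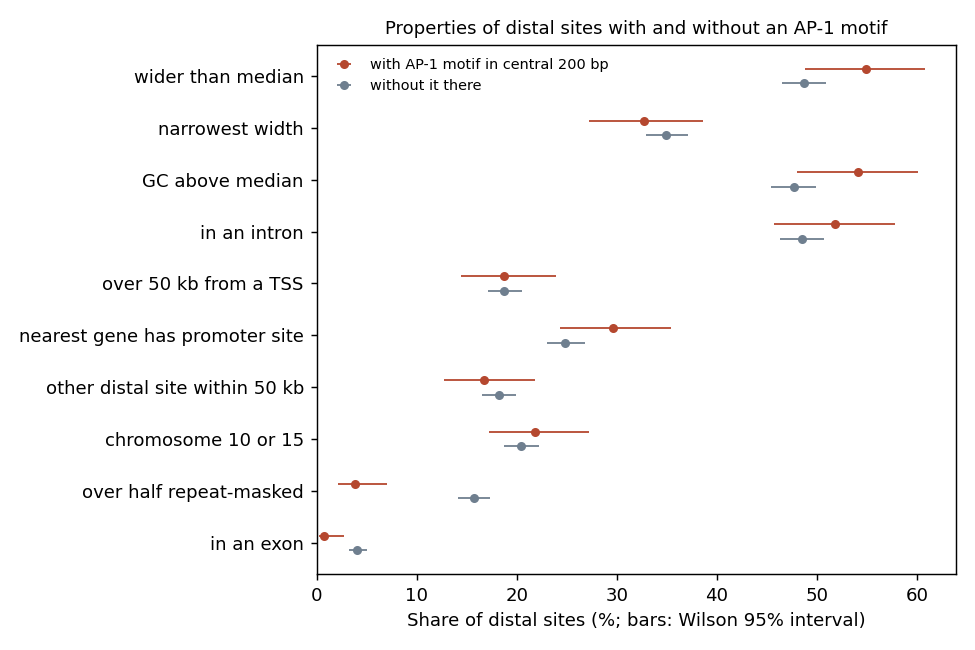
Share of sites (x axis, %) with each property (y axis) for distal sites with an AP-1 motif in the central 200 bp and without it there, with Wilson 95% intervals as bars. The intervals separate for repeat content, at 3.89% and 15.7%, and for exons, a property added after the data had been seen.

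At the edge of the distance rule, just inside stood an intronic site of Prrx1, a mesenchymal homeobox gene, at 3003 bp and 319 bp wide, and an intronic site of Ctsb, a cathepsin gene, at 3028 bp and 238 bp wide. Just outside were sites with the motif at Tspan5 (2984 bp) and Anxa5 (2976 bp), both 200 bp wide. No member window overlapped an annotated untranslated region.

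The members were spread over many genes. Their nearest protein-coding genes numbered 244, of which 233 were nearest to 1 member, 9 to 2 and 2 to 3. The genes with 3 lay near each other on chromosome 15. Ext1, a glycosyltransferase that builds heparan sulfate, had members of 227, 202 and 200 bp at 185472, 63093 and 41234 bp from its TSS. Trps1, a zinc-finger repressor, had members of 200, 228 and 200 bp at 655069, 12488 and 10907 bp. Distal sites without the motif in the central 200 bp numbered 1 for Ext1 and 5 for Trps1. Both genes also had a promoter site. Between them Eif3h, a translation initiation factor subunit, had 2 members and 5 distal sites without the motif there. The 5-Mb interval of chromosome 15 from 50 to 55 Mb held 11 members among its 29 distal sites (37.9%), with widths of 200 to 353 bp. It was picked as the fullest after counting, so this share is a selected maximum and was not tested. Over all distal sites outside islands the share was 11.6%. On the whole of chromosome 15 it was 14.2%, against 11.3% elsewhere (two-sided Fisher's exact test, adjusted p = 0.521). The next fullest of the 174 intervals with members held 6.

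Of the other genes with 2 members, Pde4d, a cAMP phosphodiesterase gene, had intronic sites of 398 and 296 bp, Mast4, a kinase gene, intronic sites of 340 and 200 bp, Cysltr2, a leukotriene receptor gene, sites of 425 and 211 bp, and Moxd1 sites of 290 and 286 bp. Pde4d had a promoter site and these other 3 genes did not. Distal sites without the motif in the central 200 bp numbered 3 for Pde4d, 1 for Mast4, 0 for Cysltr2 and 0 for Moxd1. Over all members, 76 of 257 (29.6%) had a nearest coding gene with an ASH2L site within 1 kb of a TSS, against 24.8% of the other distal sites (odds ratio 1.27, 0.940 to 1.70, exact p = 0.109, adjusted p = 0.241). Counted once per gene, these were 70 of 244 genes (28.7%), 361 of 1559 for the other distal sites (23.2%) and 3078 of all 21938 protein-coding genes (14%). Genes nearest to both kinds of site, 83 in number, are in both counts.

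Few members, and few of the other distal sites, had a gene of the AP-1 pathway as the nearest one. None of 24 AP-1 factor genes (FOS, JUN, ATF, BATF, MAF and related families) was nearest to any of the 257 members, a count of 0 that allows a share of up to 1.17% (3 counts of the total), and 4 other distal sites were (0.204%). Of 38 AP-1 target genes, 2 were, for 0.778% of the members against 0.357% of the others. The site of Mmp13, a collagenase gene, was 200 bp wide, intergenic, 13827 bp upstream of the TSS, with its match 30 bp from the centre. The site of Trib1, a pseudokinase gene, was 368 bp wide, in an intron of Nsmce2, 72840 bp upstream, with its match at 24 bp.

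Lists of fibroblast genes gave small counts as well. Any of 9 lists held the nearest gene of 28 members (10.9%) and of 145 other sites (7.40%), with no test since the lists were chosen with results known. Growth factors and receptor kinases were nearest to 6 members (2.33%) and 15 others (0.765%), among them Pdgfc (an intronic site of 424 bp), Efnb2 (269 bp), Vegfc (247 bp, with 2 matches) and Nrg1 (237 bp), at 126942, 455944, 138691 and 128556 bp from the TSS. Extracellular matrix genes were nearest to 5 members (1.95%) and 16 others (0.816%), with Thbs1 (284 bp), Has2 (248 bp), Vcan (237 bp) and Fn1 (214 bp), at 4545, 275833, 146736 and 270733 bp. Immediate-early and MAPK feedback genes were nearest to 4 members (1.56%) and 15 others (0.765%): besides Ier3 these were Myc (317 bp), Dusp10 (200 bp) and Klf4 (200 bp), at 452415, 106145 and 199732 bp.

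For the remaining lists the shares of members and other sites lay closer together. Genes of the actin cytoskeleton and adhesion were nearest to 4 members (1.56%) and 26 others (1.33%), with Lpp (342 bp), Itgb1 (210 bp), Arhgap29 (200 bp) and Diaph3 (200 bp), at 47624, 18739, 19484 and 820331 bp from the TSS. Mesenchymal transcription factors were nearest to 4 (1.56%) and 43 others (2.19%), namely Tbx15 (454 bp), Prrx1 (319 bp), Foxp1 (271 bp) and Zeb1 (200 bp), at 76288, 3003, 9052 and 81711 bp. Genes of TGF-beta and BMP signalling were nearest to 2 (0.778%) and 13 others (0.663%), Ltbp1 (291 bp) and Tgfbr2 (206 bp), at 4384 and 208236 bp. Of YAP and TEAD genes, of which 20 of 22 listed symbols were in the annotation, Vgll3 was nearest to a member (0.389%), against 6 other sites (0.306%).

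A second transcription factor motif was sought beside AP-1 in the central 200 bp, on both strands and without overlap of an AP-1 match. None of 19 motifs differed between members and the other distal sites after adjustment, and 2 had an unadjusted p below 0.05 in the two-sided Fisher's exact test. The TEAD motif CATTCC was present in 65 members (25.3%, 20.4 to 30.9) and in 343 others (17.5%, 15.9 to 19.2), an odds ratio of 1.6 (1.16 to 2.18, exact p = 0.00350, adjusted p = 0.0666), and in 11.7% of all sites. In 20 of the 65 members it lay within 20 bp of an AP-1 match, and the median gap over the 65 was 46 bp. The RUNX motif TGTGGTT was present in 29 members (11.3%) and 132 others (6.73%), an odds ratio of 1.76 (1.11 to 2.72, exact p = 0.0143, adjusted p = 0.136), and in 4.14% of all sites. It lay within 20 bp of an AP-1 match in 5 of the 29, with a median gap of 44 bp. The spacing expected of motifs placed at random in the window was not computed for either motif.

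For the TEAD motif the call depended on the definition of members. With AP-1 required in the central 100 bp, TEAD was found in 29.9% of members and 17.6% of the others (exact adjusted p = 0.00744) and RUNX in 13.6% and 6.81% (adjusted p = 0.0436). Without chromosomes 10 and 15 the TEAD shares were 22.4% and 17.8% (exact adjusted p = 0.339). The GATA factor motif (AGATAA) was present in 18 members (7.0%) and 10.9% of the others (odds ratio 0.618, 0.353 to 1.02, exact adjusted p = 0.406), and the SOX motif (ACAATGG) in 4 members (1.56%) and 3.47% of the others (odds ratio 0.440, 0.116 to 1.19, adjusted p = 0.502). The cyclic AMP response element TGACGTCA, a longer palindrome with the same outer bases as the AP-1 consensus, was present in 1 member and 1 other site. The median width was 239 bp in members with a TEAD motif and 237 bp in those without it.

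**Figure D5:**
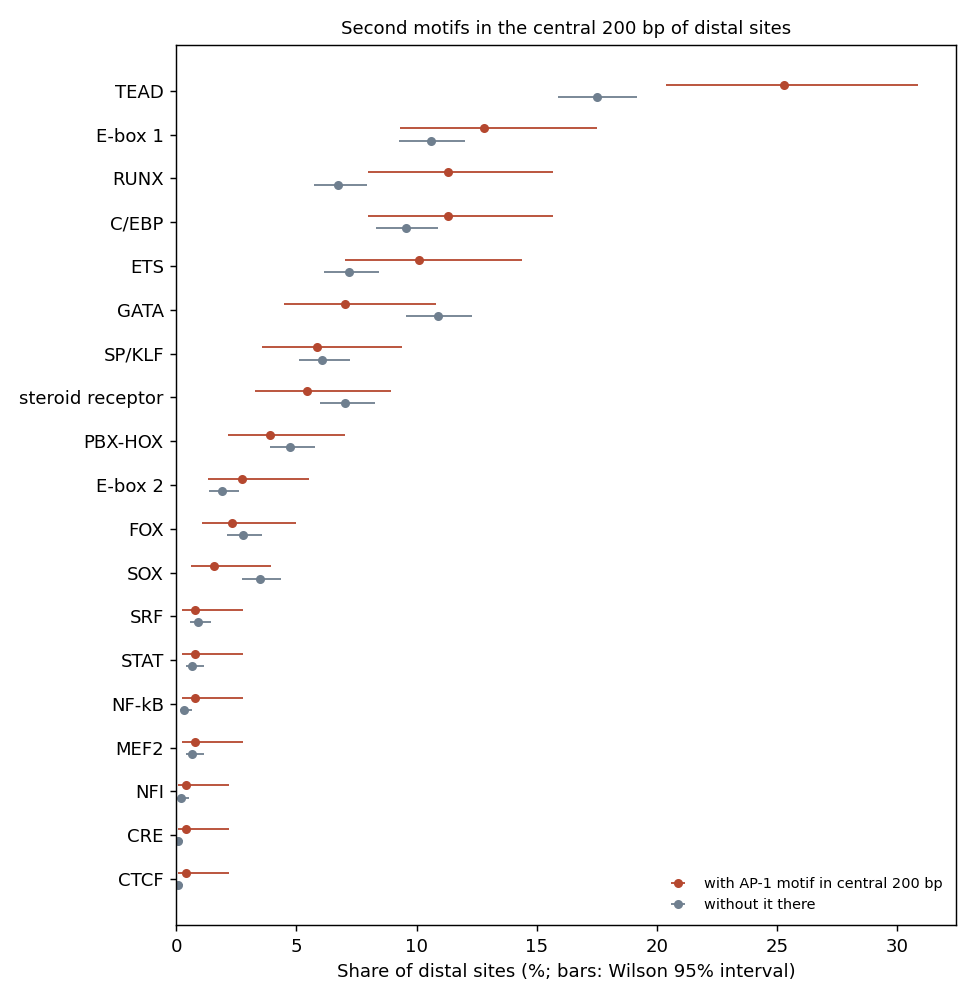
Share of distal sites (x axis, %) whose central 200 bp held each of 19 second motifs (y axis), with and without an AP-1 motif in the same window, with Wilson 95% intervals as bars. TEAD, at 25.3% and 17.5%, is the most frequent, E-box 1 is CAGCTG and E-box 2 is CACGTG.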

How the data were processed

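For their deposited list the authors used Trim Galore for trimming, BWA for alignment to mm10, SAMtools for filters, Picard to merge replicates, and MACS for narrow peaks. It gives chromosome, start and end for the union of sites over all samples, with no score, count or column per sample. Whether peaks were called per sample or on merged replicates is not visible in it. Precipitation used antibodies against the HA epitope per the study's methods, and the labels name Ash2l.

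Starts were read as counted from 0 and are printed from 1. Sequence was GRCm38.p6, the same build. TSSs (132629) and genes came from GENCODE mouse release 21, and the authors used a later one. Islands were computed on windows of 200 bp, with GC above 50% and CpG at over 0.6 of the expected number. The members, properties, motifs and gene lists were chosen with earlier results of these data known. Sites named are the 8 widest, those with at least 3 matches, those of the 8 genes with most members (ties by summed width), those nearest to AP-1 factor or target genes, and up to 4 per other gene list, widest first. The named gene is the protein-coding gene with the nearest TSS. Distances to named genes are to this coding TSS, and a TSS of another gene type could be nearer, as for the sites of Fn1 (6808 bp) and Myc (11207 bp). Over the members the median distance was 32721 bp to a coding TSS and 15061 bp to any TSS.

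Shares were compared by two-sided Fisher's exact tests, and the match position by an exact binomial test. P-values were adjusted by the Benjamini-Hochberg method within 11 properties, 19 motifs and 21 chromosomes. They describe sites of 1 list, which are not replicates. Second motifs were TEAD CATTCC, RUNX TGTGGTT, ETS CAGGAAG, C/EBP TTGCNNAA, CRE TGACGTCA, E-boxes CAGCTG and CACGTG, STAT TTCCNGGAA, steroid receptor ACANNNTGT, SP/KLF CCCCNCCC, FOX TGTTTAC, SOX ACAATGG, PBX-HOX TGATTNAT, and AGATAA of GATA factors, with NFI, NF-kB, SRF, CTCF and MEF2 by name. Over all sites these were present in 11.7, 4.14, 7.28, 6.86, 0.513, 9.24, 2.80, 0.591, 4.04, 15.6, 1.93, 2.10, 2.52, 5.91, 0.373, 0.311, 0.638, 0.202 and 0.296% of the central windows, in this order. The matching and the tests were checked on simulated data. Alternatives changed the TSS distance or TSS set, the island definition, the motif window, the width and GC range, the merging of sites and the chromosomes included. Python 3.11.15, NumPy 2.4.6, SciPy 1.17.1 and matplotlib 3.10.9 were used.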

Additional observations from a re-analysis of the deposited data

How the results depend on the processing

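Of 215 alternative values over 19 results, 178 kept their direction and their side of the threshold or, where the result is a plain count, stayed within 1.5 times the count reported. The lower share of repeat-rich members held in every alternative run. Taking the motif anywhere in the site, which gives wider sites more sequence to hold it, brought the differences between members and other sites in width (15.0 percentage points), narrowest width (-9.14) and GC content (7.26) past the threshold, as well as the central position of the match against the possible positions (26.3% against 20.1%, 6.16 points), so that 5 properties passed in place of 1. Without chromosomes 10 and 15, 2 passed, GC content at 12.1 points being the second. The width difference was -3.57 points when divided at the 75th percentile. The narrowest-width difference was 0.500 points beyond 10 kb from a TSS, 1.47 with the motif in the central 100 bp and 0.259 without chromosomes 10 and 15. The share far from a TSS, -0.0474 points as reported, was 0.942 beyond 1 kb, 0.500 beyond 10 kb, 0.627 with protein-coding TSSs, 0.222 with islands kept, 0.352 with the central 100 bp, 0.152 with the motif anywhere, 0.487 over the narrowest width, 0.177 with sites merged, 0.779 in the interquartile range of GC content, 1.53 without chromosomes 10 and 15 and 1.78 for over 100 kb. Clustering was 2.38 points beyond 10 kb and 0.621 with the motif anywhere. Second motifs past the threshold numbered 2 with the central 100 bp, 1 with the motif anywhere and 1 with sites merged. Members nearest to listed genes numbered 15 with the central 100 bp and 13 in the interquartile range of GC content, where fewer members were left (147 and 148). Apart from the shares set by the definitions themselves, the cause of these shifts was not tested. No paired analysis was possible because the list has no column per sample. For the same reason no replicate could be left out, no stricter peak threshold applied and no depth given.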

Other observations

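Both patterns in this section were chosen after the data had been seen. No member lay on chromosome X, where the list had 80 distal sites outside islands, a count of 0 that allows a share of up to 3.75% (3 counts of the total; the Wilson 95% upper limit was 4.58%). On the other chromosomes 257 of 2137 such sites held the motif (12.0%), and the two-sided Fisher's exact test gave p = 9.99e-05 (adjusted p = 0.00210 over 21 chromosomes). In the distal genome windows of chromosome X the motif was present in 2.59%. The autosomes ranged from 5.08 to 18.6% and none passed the threshold. The distal sites of chromosome X had a median width of 208 bp against 226 bp, a median GC content of 42.0% against 45.5%, and 30.0% of them against 13.7% were more than 50% soft-masked. The part of these values in the result was not tested. In the full length of the site 1 of these 80 held the motif, against 312 of 2137 elsewhere, and within 500 bp of the centre 14 did, against 681 of 2137. The adjusted p was 0.192 with the motif in the central 100 bp, 0.0937 over the narrowest width and 0.271 in the interquartile range of GC content.

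Exonic sites were few among the members. Their centres lay in an exon in 2 of 257 cases (0.778%, 0.214 to 2.79), against 79 of 1960 other distal sites (4.03%, 3.25 to 5.00), an odds ratio of 0.187 (0.0221 to 0.705, p = 0.00437, two-sided Fisher's exact test). Of the 81 exonic distal sites 2.47% held the motif (0.680 to 8.56), against 3.14% of exonic distal windows of the genome. For introns these values were 12.3% and 3.26%, and for intergenic sites 11.6% and 3.0%. With the motif in the central 100 bp the exonic difference had an exact p = 0.169.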
